A study of Mus musculus with 7 samples.

Results

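The genes described here encode the proteins of the cytosolic ribosome, measured in mouse colon after repeated TNBS enemas and after saline enemas. They were taken as the genes whose platform symbol starts with Rpl or Rps followed by a digit or by p, with the Rps6k kinases left out and with probe sets that carry several symbols set aside. The rule gave 34 genes on 48 probe sets, among 8251 genes with a symbol on the array. The large (60S) subunit accounted for 17 of them and the small (40S) subunit for 17. The label was not tested by other markers, since the rule names the genes themselves. Ribosomal protein genes with other symbols, such as Rpsa, are left out by the rule.

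Ribosomes translate messenger RNA into protein, and each consists of a small subunit that decodes the message and a large subunit that joins the amino acids. Their proteins are made in matching amounts in most growing cells, and the messages are among the most abundant of any tissue. A stalk built on Rplp0 recruits the elongation factors, and Rpl41 is the smallest protein of the ribosome, a short basic peptide of the large subunit. In the colon the renewing crypt epithelium is a main site of protein synthesis.

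All mice were female CD-1 outbred animals, 10 to 12 weeks old when the experiment began, and all received 6 enemas. TNBS, or trinitrobenzene sulphonic acid, was given in ethanol and acts as a hapten, a small molecule that makes tissue proteins immunogenic. Its pools combined RNA from 6 mice at 3 days after the enemas (week 6), 4 mice at 2 weeks (week 8), 5 mice at 4 weeks (week 10) and 4 mice at 6 weeks (week 12). The saline controls were a week 6 group of 5 mice and a later pool of 4 mice, 2 killed at week 8 and 2 at week 10. The week 6 saline RNA was measured on 2 arrays, each labelled as RNA pooled from 5 mice. They were taken as 1 pool, since the group had 5 mice, but the labels do not say whether the RNA was pooled once. No group received ethanol alone, and week 12 had no saline pool of its own age. Each group was thus 1 pool of whole colon tissue taken 4 ± 0.5 cm from the anus. Week, age and any difference in handling between the 3 week 6 arrays and the 4 later ones cannot be told apart. In such tissue RNA, fewer cells of a type and less RNA per cell cannot be told apart either.

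The values were MAS5 signals, a linear brightness per probe set scaled to a target of 150 on each array. The number of arrays limits their precision. Signals under a floor of 50 were set to 50, and a gene was kept when its highest pool reached 100, which left 4316 genes. Median signals were 51.8 to 61.2. All 13 epithelial and all 9 smooth muscle markers on the array were at or above the filter, beside 4316 of all 8251 genes. All 8 pancreatic acinar and 12 of 14 leukocyte markers were so too, and these counts therefore do not tell which tissue was taken. Summed signals of 8 pancreatic acinar markers were 6592 and 9577 in the TNBS pools of weeks 6 and 8 and 2652 and 2647 in those of weeks 10 and 12. They were 2361 and 2845 on the week 6 saline arrays and 2279 in the later saline pool. The sums hide that at week 12 5 of the 8 were at least 1.5-fold lower than in later saline, and 1 was higher by as much. Beta-actin has control probe sets at both ends of its message, and their 3'/5' signal ratio was 0.798 to 0.818 on the later arrays and 1.14 to 1.24 on the week 6 arrays, and that of Gapdh was 0.869 to 1.00 on the later and 0.912 to 0.942 on the week 6 arrays.

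Of the 34 genes, 22 reached the filter, 11 of each subunit, and 18 of these had a mean signal of at least 1000. The other 12 were Rpl32, Rpl35a, Rpl38, Rpl39, Rpl39l, Rpl7l1, Rps14, Rps15, Rps20, Rps27l, Rps29 and Rps4l, whose 15 probe sets never exceeded a signal of 63. Rpl39l, Rpl7l1, Rps27l and Rps4l are paralogs of common ribosomal proteins. The remaining ones are core proteins of the ribosome, and the level of a probe set cannot be set against that of another. Of the 48 probe sets, 17 lay under the floor on all 7 arrays, which is 35.4%, against 36.0% of all probe sets with 1 symbol. Another 9 probe sets carried a ribosomal protein symbol together with other symbols. They are not named, and 8 of them reached a signal of 100. By the mean of the later pools minus that of the week 6 pools, those 8 differed by -0.42 to -0.10 on the log2 scale.

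RefSeq promoter windows of GRCm38.p6, from 250 bases before to 50 after an annotated start, were found for 27 of the 34 genes, with 36 windows in all. Short motifs were searched on both strands, each counted apart from the others. The ETS factor core CCGGAA was in 16 of the 36 windows (44.4%), against 14.9% of all 32851 windows in the table. The GC box GGGCGG was in 20 (55.6%), against 35.7% of all windows, and TATAAA was in 4 (11.1%), against 13.6%. AAGATGGCG, a sequence bound by YY1, stood in 6 (16.7%), against 1.40%. An annotated start at a C followed by at least 4 pyrimidines on the sense strand, the form of a terminal oligopyrimidine tract, was found in 5 windows (13.9%), those of Rpl35a, Rpl38, Rps10, Rps18 and Rps27, against 2.51% of all. The pyrimidine run was sought at the annotated start base alone, so a run beginning a few bases away was not counted. A match is a run of letters and not a shown binding site.

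The windows below run from 60 bases before the start to the 10 bases that begin there, with CCGGAA or GGGCGG (either strand) or the pyrimidine run in capitals. Rpl41 is shown as the gene whose signal differed most between the week 6 and later arrays, Rps3a1 as one of the steadiest, Rplp0 as the stalk protein and Rps18 for its pyrimidine run. Rpl41 lies at chr10:128549159-128549228 on the minus strand, Rps3a1 at chr3:86142659-86142728 on the minus strand, Rplp0 at chr5:115559407-115559476 on the plus strand and Rps18 at chr17:33955656-33955725 on the minus strand.
Rpl41: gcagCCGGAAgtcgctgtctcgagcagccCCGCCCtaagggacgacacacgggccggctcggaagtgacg
Rps3a1: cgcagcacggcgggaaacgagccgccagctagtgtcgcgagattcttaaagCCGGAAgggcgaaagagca
Rplp0: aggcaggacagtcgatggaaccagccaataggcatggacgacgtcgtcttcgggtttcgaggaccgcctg
Rps18: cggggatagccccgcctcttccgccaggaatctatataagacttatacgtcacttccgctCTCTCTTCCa
Rpl41 and Rps3a1, with the widest span of signal over the pools and one of the narrowest, both hold the ETS core within these bases. Rplp0 holds none of the searched motifs there.

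Rpl41 stood apart from the other 21 genes between the week 6 and the later arrays, in TNBS and in saline pools alike. Its signal was 10655, 4600.0, 2162 and 1080.1 in the TNBS pools of weeks 6, 8, 10 and 12. On the saline arrays it was 11414 and 9879 at week 6 and 1109 in the later pool. The 4 later arrays all lay below the 3 week 6 arrays, with the lowest week 6 signal 2.15 times the highest later one. Over the TNBS pools the values descended with time, and the later saline pool lay beside the week 12 TNBS pool, without TNBS. Rpl41 has a single probe set on the array, of the kind whose probes match a family of sequences, so related copies of the gene could contribute to it.

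In a model with TNBS and time set as terms, fitted over all 6 pools, Rpl41 was 6.35-fold lower on later than on week 6 arrays (log2 difference -2.67 ± 0.52, SE, n = 6 pools). That was the lowest of all 4316 genes, and the next was Mcpt1, a mast cell chymase, at -2.07. Among all probe sets, Rpl41 ranked 2, lowest first, by the mean of the later pools minus that of the week 6 pools. Of 86 bright probe sets of its kind, its own among them, 4 (4.65%) were at least 2-fold lower. Of 347 bright plain ones, which carry no mark of a kind, 3 (0.865%) were. The other 21 ribosomal protein genes had differences between -0.31 (Rpl19) and 0.62 (Rps19), with a median of -0.06. Of these, 20 lay within 1.5-fold. The large subunit without Rpl41 had a median of -0.20, with 7 of 10 genes below 0. The small subunit had 0.03, with 5 of 11 below 0, beside 2148 of all 4316 genes. Within the saline pools Rpl41 was 9.57-fold lower in the later pool than at week 6, and within the TNBS pools 4.83-fold lower in the later pools than at week 6. Rpl41 was singled out with these values known, so they are a description, and its p-value is not given. With array medians made equal its difference was -2.54 and with quantile normalization -2.55.

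**Figure D1:**
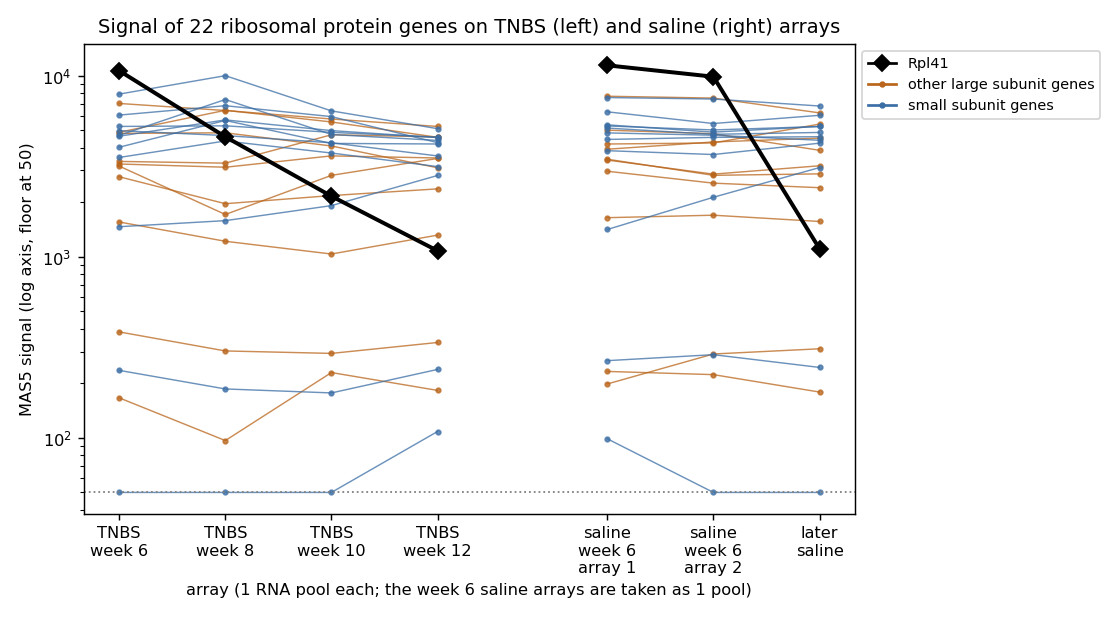
MAS5 signal (log axis, dotted line at the floor of 50) of the 22 ribosomal protein genes that reached the filter, 1 line per gene, over the 4 TNBS pools on the left and the 3 saline arrays on the right. Rpl41 (black diamonds) stood at 10655 on the week 6 TNBS array and at 1080.1 at week 12, and at 1109 in the later saline pool, while 20 of the other 21 genes lay within 1.5-fold between later and week 6 arrays.

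Across the whole family, the model called no gene between later and week 6 arrays at an adjusted p under 0.05 (limma, Benjamini-Hochberg over 4316 genes). It called no gene of the table at all, in either direction, so the background share is 0%. At an unadjusted p under 0.05 it had 497 genes (11.5%), among them 1 of the 21 ribosomal protein genes other than Rpl41. That gene was Rps19, higher on later arrays by 0.62 on the log2 scale, with a limma adjusted p of 0.411. The count of ribosomal protein genes called was 1 without the week 8 TNBS pool, where 4 of all 4316 genes were called. The gene was Rpl41, whose choice rests on this contrast, so the count is no test of it. In the other fits that left out 1 pool no ribosomal protein gene was called. In simulated data, 100 genes were given a log2 change of 1.5 on this term and 100 a change of 3. Of those with 1.5, 73% were called. The simulation held many large changes and shuffled the spread among genes, so this share is not the power of the test in these data.

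At 2-fold, Rpl41 was the 1 ribosomal protein gene of 22 that was lower on later arrays in the model, and none was higher, beside 0.88% of all genes lower and 0.44% higher. At 1.5-fold Rps19 was higher and Rpl41 lower, 1 gene each way, beside 3.24% of all genes higher and 4.82% lower. All 4 later arrays lay below all 3 week 6 arrays for 4 of the 22 genes, Rpl41, Rpl7a, Rplp0 and Rps3, beside 9.71% of all genes. For none of the 22 did all later arrays lie above all week 6 arrays, beside 9.06% of all genes. Among the 348 other genes with a mean signal of at least 1000, the later arrays lay below in 21, or 6.03%. Rpl41 is 1 of the 4, and the model differences of the other 3 were 1.22-fold or less by size.

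Rplp0, the stalk protein, had 7029, 6427, 5769.6 and 5247 in the TNBS pools of weeks 6 to 12, against 7705 and 7526 on the week 6 saline arrays and 6237 in the later saline pool. Rpl7a, a large subunit protein, had 2767, 1965, 2179 and 2373 in the TNBS pools, against 2969 and 2552 on the week 6 saline arrays and 2409 in the later saline pool. Rps3, a small subunit protein near the channel where messages enter, had 4974, 4675, 4262.5 and 3608 in the TNBS pools, against 4834 and 4694 on the week 6 saline arrays and 4403 in the later saline pool. In each of the 3 the week 6 and later signals came close without overlapping. Their model differences of -0.28, -0.29 and -0.20 (SE 0.19, 0.18 and 0.19, n = 6 pools) had limma adjusted p-values of 0.603, 0.540 and 0.722.

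**Figure D2:**
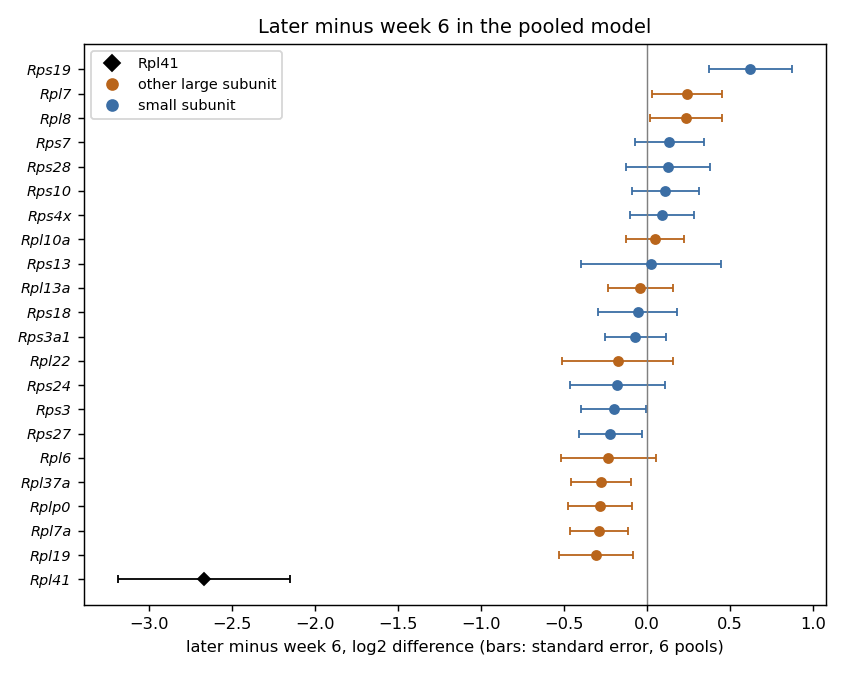
Later minus week 6 log2 difference of each of the 22 genes in the model over 6 pools, with bars of 1 standard error. Rpl41 lies at -2.67, and the other genes lie between -0.31 and 0.62.

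The other genes of the large subunit ran level or varied without separating weeks. Rpl19, which helps bridge the subunits, had 4806, 4841, 4093 and 3103 in the TNBS pools of weeks 6, 8, 10 and 12, against 5005 and 4786 on the week 6 saline arrays and 3875 in the later saline pool. Its later signals reached into the week 6 range through the week 8 pool. Rpl10a, a protein of the L1 stalk, had 3256, 3124.5, 3609.6 and 3514 in the TNBS pools, against 3423 and 2862 and, later, 3183 in saline. It spanned 0.21 on the log2 scale over all pools, and TNBS and saline overlapped. Rpl8, beside the peptidyl transferase centre, had 3364, 3291, 4720.1 and 4592 in the TNBS pools, against 3928 and 4309 and, later, 4521 in saline. Its weeks 6 and 8 TNBS pools were the lowest values.

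Rpl6 had 3169, 1713, 2818 and 3493 in the TNBS pools of weeks 6 to 12, against 3459 and 2819 on the week 6 saline arrays and 2872 in the later saline pool. Rpl7 had 4873, 6445, 5556.5 and 4570.5 in the TNBS pools, against 4198 and 4254 at week 6 and 5408 later in saline. Both belong to the large subunit, and the week 8 TNBS pool held the lowest signal of Rpl6 and the highest of Rpl7. Rpl37a, a zinc-binding protein, had 1557, 1219, 1036 and 1318 in the TNBS pools, against 1645 and 1698 at week 6 and 1568 later in saline. All TNBS pools of Rpl37a lay below all saline arrays.

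Rpl13a, which also silences inflammatory messages in phagocytes, had 385, 302, 293 and 336.5 in the TNBS pools, against 199 and 291 on the week 6 saline arrays and 311 in the later saline pool. Rpl22, an RNA-binding protein needed for T cell development, had 166, 96.7, 229.6 and 183 in the TNBS pools, against 233 and 224 on the week 6 saline arrays and 179 in the later saline pool. The 2 week 6 saline arrays differed 1.46-fold for Rpl13a, beside 1.60-fold between week 6 TNBS and their mean. Rpl22 had its lowest value at week 8, and it spanned 1.25 on the log2 scale over the pools, the widest span after Rpl41.

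In the small subunit, Rps19, which is needed to mature the 18S ribosomal RNA and is often mutated in human Diamond-Blackfan anaemia, varied most among the bright genes of that subunit. It had 1467, 1584, 1918 and 2813 in the TNBS pools of weeks 6, 8, 10 and 12, against 1416 and 2132.5 on the week 6 saline arrays and 3112 in the later saline pool. The later saline pool was the highest array, and the gap between the 2 week 6 saline arrays was as large as several of the gaps between groups. Rps24, another gene of that anaemia, had 7919, 10009.7, 6395.5 and 5103 in the TNBS pools, against 7579 and 7438 at week 6 and 6806 later in saline. Its highest signal was at week 8 and its lowest at week 12.

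Rps18 and Rps10 had their highest TNBS signals at week 8 and their lowest at week 12. Rps18, in the head of the small subunit, had 6064, 6831, 5946.5 and 4273 in the TNBS pools, against 6320.3 and 5448 at week 6 and 6046 later in saline. Rps10 had 3538, 4364, 3743 and 3149 in the TNBS pools, against 3856 and 3672 at week 6 and 4243 later in saline. Rps7, whose protein can bind Mdm2, had 4031, 5665, 4229 and 4199 in the TNBS pools, against 4449 and 4568 at week 6 and 4604 later in saline. The week 8 TNBS pool was above every saline array for these 3 genes.

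Rps28, near the exit of the messenger RNA, had 4686, 7392, 4737 and 4393 in the TNBS pools, against 5282 and 5019 at week 6 and 5246 later in saline. A second bright probe set of Rps28 had 4432, 4531, 3675 and 2881 in the TNBS pools, against 5066.5 and 4645 at week 6 and 3225 later in saline. The probe sets differed in direction between later and week 6 arrays, at 0.12 and -0.39 (log2), and a dim probe set near the floor lay between them, at -0.12. No other gene had probe sets as far apart, and none reached 1 log2 unit. Rps3a1 and Rps4x, the X-linked copy of Rps4, were steady. Rps3a1 had 5249, 5289.8, 4868 and 4578 in the TNBS pools, against 5139.9 and 4748 at week 6 and 4862 later in saline. Rps4x had 4637, 5704, 4977 and 4554 in the TNBS pools, against 5356 and 4881 at week 6 and 5248.5 later in saline.

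Rps27, a zinc finger protein, had 236, 186, 177 and 239 in the TNBS pools, against 267 and 288 at week 6 and 245 later in saline. All TNBS pools of Rps27 lay below all saline arrays, as for Rpl37a, and these were the 2 such genes of the 22, beside 6.12% of all genes. None of the 22 had all TNBS pools above all saline arrays, beside 4.94%. Rps13 had signals of 30.6, 20.4, 20.1 and 108.5 in the TNBS pools, against 98.9 and 17.1 on the week 6 saline arrays and 26.4 in the later saline pool. Its week 12 TNBS signal alone carried it past the filter, and its repeated week 6 saline arrays differed by 0.98 on the log2 scale. Over the 22 genes, the SD between the 2 week 6 saline arrays was 0.21 on the log2 scale, against 0.21 over all genes. Whether this spread is that of the array alone or also of RNA preparation is not stated in the labels. The span over the 6 pools had a median of 0.65 in the 21 genes without Rpl41, beside 0.70 over all genes and 0.66 over the 348 other bright genes.

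The matched comparisons ask how TNBS pools differ from the saline pool of their set, and with 1 pool on each side they have no test. At week 6, 10 genes were above and 12 below the saline pool, with a median of -0.06 on the log2 scale beside -0.02 over all genes, and 52.6% of all genes lay below 0. None of the 22 differed 2-fold, beside 2.55% of all genes higher and 0.996% lower. Rpl13a was the 1 gene past 1.5-fold, at 1.60-fold higher, beside 7.55% of all genes higher and 5.93% lower. Rpl7 (0.21), Rps3a1 (0.09) and Rps24 (0.08) followed it, and Rpl22 (-0.46), Rpl8 (-0.29), Rps19 (-0.24) and Rps27 (-0.23) were lowest among genes above the floor. Rps13 was at -0.49, with its TNBS signal under the floor. Rpl41 differed by 0.005.

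At week 8 the family was at its widest, with log2 differences from -0.97 to 2.05 against the later saline pool. Rpl41 was 4.15-fold higher in the TNBS pool, the 1 gene past 2-fold in either direction, beside 1.53% of all genes higher and 1.74% lower, and the 1 gene past 1.5-fold upward, beside 6.56%. Rps19 was 1.96-fold, Rpl22 1.85-fold and Rpl6 1.68-fold lower, 3 genes past 1.5-fold downward beside 9.75% of all genes. Rpl8 was 1.37-fold lower. Rps24 was 1.47-fold, Rps28 1.41-fold and Rpl19 1.25-fold higher. There 12 of the 22 genes lay above 0 and 9 below, beside 42.8% and 56.5% of all genes. The median of the 22 was 0.04, but -0.22 with quantile normalization, beside -0.07 and -0.03 over all genes. Bright genes as a class lay above 0 in this comparison, with a median of 0.12 over the 348 others.

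At week 10 Rpl41 was 1.95-fold higher in the TNBS pool, and 1 gene past 1.5-fold upward stood beside 4.89% of all genes. Rps19 (1.62-fold) and Rpl37a (1.51-fold) were lower by that measure, beside 6.28% of all genes. Rps27 (-0.47), Rps10 (-0.18), Rpl22 (0.36), Rpl10a (0.18) and Rpl19 (0.08) followed on the log2 scale. Of the 22 genes 14 lay below 0, beside 50.6% of all genes. None differed 2-fold, beside 0.834% of all genes higher and 0.649% lower. At week 12 Rpl41 was level with the later saline pool (-0.04). Rps13 was at least 2.17-fold higher, against a signal under the floor, as the 1 gene of 22 past 2-fold, beside 0.718% of all genes higher and 0.88% lower. It was also the 1 gene past 1.5-fold, beside 4.84% of all genes higher and 5.38% lower. The week 12 TNBS signal alone carried Rps13 past the filter, so both counts follow from the filter and are no result about the family. Rps18 (-0.50), Rps10 (-0.43), Rps24 (-0.42) and Rpl19 (-0.32) were lowest, and Rpl6 (0.28), Rpl10a (0.14), Rpl13a (0.12) and Rpl22 (0.03) were highest among genes above the floor.

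In the week 12 comparison 16 of the 22 genes lay below 0, beside 49.7% of all genes, and 10 of the 11 small subunit genes did so, with a median of -0.20. The median of all 22 was -0.14, and it was 0.07 with quantile normalization, so its sign depends on the scaling. At week 8, 8 of the 11 small subunit genes lay above 0, with a median of 0.12, and 4 of the 11 large subunit genes. At week 10 the median of the 22 was -0.06 and became 0.06 with equal array medians. Making medians equal moved the differences over all genes by 0.18 at week 8, 0.14 at week 10 and 0.15 between later and week 6 arrays. The 3 later comparisons share the later saline pool, so their values are not independent of each other. The stalk gene Rplp0 was within 1.19-fold of saline in every matched comparison.

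**Figure D3:**
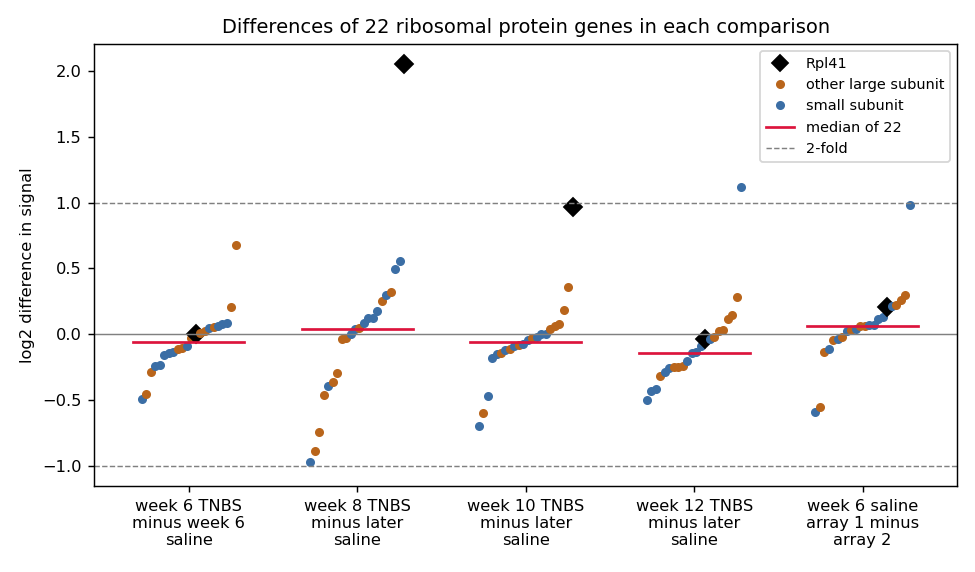
Log2 differences of the 22 genes in the 4 matched comparisons and, at the right, between the repeated week 6 saline arrays, sorted within each, with the median in red and dashed lines at 2-fold. Rpl41 lies at 2.05 at week 8, 0.96 at week 10 and -0.04 at week 12, and Rps13, near the floor, is the blue point above 2-fold at week 12.

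In the model that set the 4 TNBS pools against the 2 saline pools with the time set as covariate, limma called 0 of the 22 genes at an adjusted p under 0.05, and 0 of all 4316 genes (0%). At an unadjusted p under 0.05 it had none of the 22 and 221 of all genes (5.12%). Log2 differences ran from -0.46 (Rps19) to 0.60 (Rpl41), with a median of -0.05 beside -0.02 over all genes, and the smallest adjusted p of a ribosomal protein gene was 0.886. Rpl37a (-0.28), Rpl22 (-0.28) and Rps27 (-0.27) followed Rps19, and Rpl13a (0.27), Rpl7 (0.09) and Rpl10a (0.08) followed Rpl41. The test of whether the TNBS difference at week 6 departed from the later one called 0 of the 22 and 0 of all genes, with 0 of the 22 and 80 of all genes (1.85%) at an unadjusted p under 0.05. Pools of different weeks serve as each other's replicates here, and any course over the weeks therefore enters the error.

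The summed signal of the 22 genes was 2.65% to 3.08% of all signal on the 4 later arrays and 3.16% to 3.25% on the 3 week 6 arrays. Without Rpl41 it was 2.61% to 2.91% on the later arrays and 2.77% to 2.84% on the week 6 arrays. The groups did not overlap with Rpl41 in the sum and overlapped without it. Rpl41 alone made up 0.0423% to 0.165% of the signal on the later arrays and 0.371% to 0.418% on the week 6 arrays.

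Other transcripts that followed Rpl41 over the pools were sought among 4108 genes above the floor in all pools, as a description without a test. Pearson's r over 6 pools was highest for Acta2 (0.989), smooth muscle actin, then Spink4 (0.985), a goblet cell protein, Retnlb (0.978), a resistin-like protein of goblet cells, Lta (0.977), a lymphocyte cytokine, and Chpf (0.975), a chondroitin synthase. These points share arrays and their scaling. Retnlb had 9603, 7465, 4768 and 4250 in the TNBS pools of weeks 6, 8, 10 and 12, against 11194 and 9378 on the week 6 saline arrays and 4759 in the later saline pool. Spink4 had 5589, 4974, 3209 and 2371 in the TNBS pools, against 6139 and 5732 at week 6 and 2481 later in saline. Their later signals were all below those of week 6, and their model differences were -0.95 and -0.94. Acta2, Lta and Chpf differed less, by -0.47, -0.51 and -0.40, beside -2.67 for Rpl41. The 9 smooth muscle markers, Acta2 among them, had a median of 0.13 there, with 5 above 0 and 4 below. The other ribosomal protein genes had r between -0.89 and 0.88 with Rpl41, with a median of 0.14.

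Some control probe sets moved with Rpl41 and others did not. The 3' probe set of beta-actin had 7895, 6609, 4565 and 3642 in the TNBS pools of weeks 6 to 12, against 8224 and 7472 on the week 6 saline arrays and 4620.2 in the later saline pool. Its 5' probe set had 6348.5, 8251, 5625 and 4450.2 in the TNBS pools, against 7208.5 and 6050.3 at week 6 and 5786 later in saline. The later arrays lay below those of week 6 for the 3' probe set and overlapped with them for the 5' one. By the mean of later minus week 6 pools, these were -0.73 and -0.14 (log2). The middle beta-actin set (-0.07) and the 3', 5' and middle Gapdh sets (-0.05, -0.06 and -0.09) overlapped too. The 5' pyruvate carboxylase set, at signals of 52.1 to 99.8, was lower on all later arrays (-0.50). The 3' transferrin receptor set was at 0.41 and overlapped. The 3' probe set of the 18S ribosomal RNA had 78.1, 20.8, 10.7 and 15.5 in the TNBS pools, against 68.7 and 131.9 at week 6 and 41.6 later in saline. Its later signals were all under the floor of 50, and its other probe sets were under it on all 7 arrays. The part of these differences in that of Rpl41 was not tested.

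**Figure D4:**
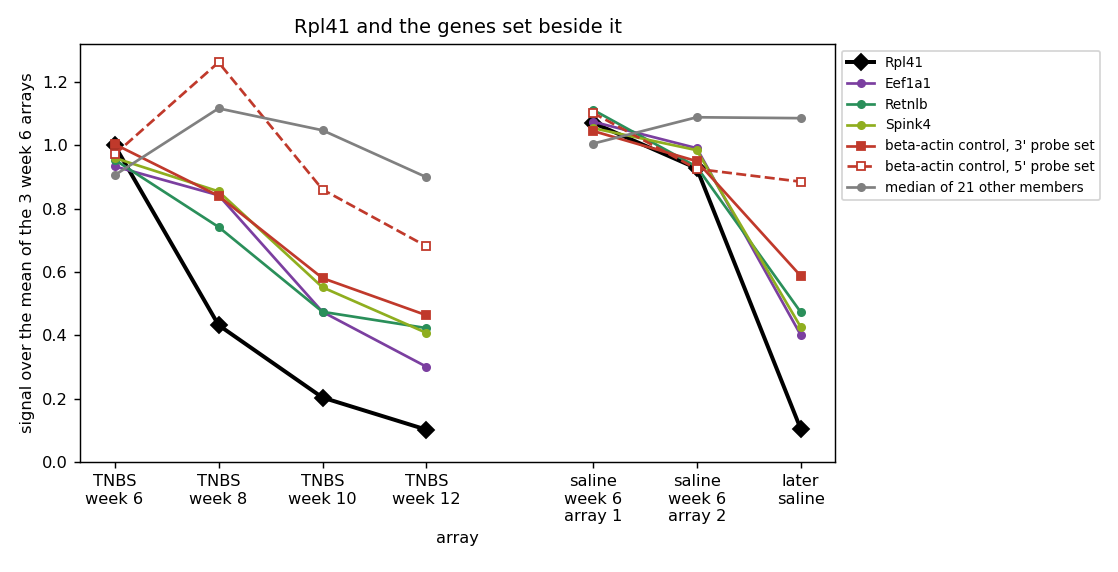
Signal relative to the mean of the 3 week 6 arrays (linear axis from 0) of Rpl41, of Eef1a1, Retnlb and Spink4, of the 3' and 5' beta-actin control probe sets and of the median of the other 21 ribosomal protein genes, over the TNBS pools on the left and the saline arrays on the right. Rpl41 ends lowest, at signals of 1080.1 with TNBS at week 12 and 1109 with saline later on, and the median of the other ribosomal protein genes was 3514 to 4364 on the later and 3538 to 4254 on the week 6 arrays.

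Among the lists of genes that act with the ribosome or build it, Eef1a1 was the 1 gene that was 2-fold lower on later arrays. Eef1a1, the factor that delivers transfer RNAs, had 8102, 7310.2, 4112 and 2606.5 in the TNBS pools of weeks 6, 8, 10 and 12, against 9330.0 and 8602 on the week 6 saline arrays and 3480.3 in the later saline pool. All its later arrays lay below those of week 6, with a model difference of -1.10 ± 0.38 (SE, n = 6 pools) and a limma adjusted p of 0.375. The 6 elongation and release factors at the filter had a median of 0.09. At week 6 Eef1a2, a second form of that factor, was 2.01-fold lower in the TNBS pool than in saline, the 1 factor of the 6 past 2-fold there. Eef2, which moves the ribosome along the message, was 1.51-fold lower in the week 6 TNBS pool than in saline, with a signal of 1892 against 2979 and 2756.

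The list of initiation factors held 29 genes whose symbols start with Eif, among them regulators such as Eif2ak1 and Eif4ebp2. None of the 29 was 2-fold lower or higher on later arrays, with a median of 0.08. At week 6, 1 of them, Eif2ak1, a haem-regulated kinase of the initiation factor eIF2, was 2.68-fold lower in TNBS than in saline, with 81.8 against 223 and 215. Of 46 mitochondrial ribosomal protein genes, none was 2-fold different between later and week 6 arrays, with a median of 0.05. At week 8, 1 of them, Mrps26, was at least 2.04-fold lower, with a signal of 47.3, under the floor, against 102. Of 20 genes of ribosome biogenesis none differed 2-fold in any matched comparison, and Fbl, fibrillarin, was 1.71-fold lower at week 8. Of 7 abundant genes linked to the ribosome, among them Rpsa, Tpt1 and Npm1, none differed 2-fold in any matched comparison. Rpsa, a small subunit protein outside the rule, had 1815.5, 1333.6, 1322.8 and 1153.1 in the TNBS pools of weeks 6 to 12. In saline it had 1691 and 1395.3 at week 6 and 1334.5 later. Its later arrays all lay below those of week 6, with a model difference of -0.39. Of 4 translation control genes, Tsc2, an inhibitor of the mTOR pathway, was 1.52-fold lower at week 8. Eif4ebp2, which restrains cap-dependent initiation, was 1.66-fold higher at week 10 and 1.59-fold higher at week 12. Its TNBS signals there were 990.7 and 945.9, both set against 596.1 in the same later saline pool. It had 953.2 and 832.3 on the week 6 saline arrays and 552 in the week 8 TNBS pool. In limma's models no gene of these lists was called at an adjusted p under 0.05, beside 0% of all genes.

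Of 11 short abundant transcripts outside the ribosome, none was 2-fold lower on later arrays and the median was 0.18. Mt2, a metallothionein, was 2.37-fold higher at week 6 and Atp5j, a subunit of ATP synthase, 2.14-fold higher at week 8. The genes lowest on later arrays after Rpl41 and Mcpt1 were Pla2g2a (3.99-fold lower), Sprr2e (3.63-fold) and Limk1 (3.33-fold), and the highest were Fabp2 (3.53-fold higher), Ifit1 (2.77-fold), Rsad2 (2.72-fold), Rnf149 (2.65-fold) and Aldh1a1 (2.59-fold). None of these is a ribosomal protein gene.

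Cell type markers moved within these comparisons too. The 12 proliferation markers had a median of 0.61 at week 6, with all 12 above saline, where the 22 ribosomal protein genes had -0.06. Mki67 was 2.57-fold and Birc5 2.41-fold higher there. The 12 leukocyte markers had a median of 0.84 at week 6 and of -0.41 between later and week 6 arrays. The 13 epithelial markers had a median of -0.05 at week 6 and 0.17 between later and week 6 arrays, where Car1 was 2.53-fold higher. Of the 13, 9 lay above 0 there and 4 below, with 3 at least 1.5-fold higher and 1 lower by as much. In saline alone, Car1 was 2.31-fold higher and Fcgbp 2.07-fold lower in the later pool than at week 6. The 9 smooth muscle markers had medians of -0.16 at week 6 and 0.13 between later and week 6 arrays. Summed epithelial signal was 30461 to 48009 on the later and 35354 to 43641 on the week 6 arrays. The part of the tissue's makeup in any difference of a ribosomal protein gene was not tested.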

How the data were processed

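The deposited values are intensity signals on a linear scale, made by the authors with Affymetrix Microarray Suite 5.0 and scaled to a target of 150, per the labels. From 12488 probe sets, 66 controls were left out. The platform annotation gave 10833 probe sets 1 symbol, 396 several and 1193 none, and 10817 of the 10833 were found in RefSeq GRCm38.p6. Each gene was taken as its probe set with the highest mean. Values under 50 were set to 50, log2 was taken, and both week 6 saline arrays were averaged. Genes under 100 in every pool were left out.

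For the models limma 3.58.1 was run in R 4.3.3 (lmFit, eBayes with trend, two-sided, 3 residual degrees of freedom and 2 for the interaction), with Benjamini-Hochberg adjustment over 4316 genes. They measure the spread between pools. In the simulated data, the term for later arrays called 97% of log2 changes of 3 and 0.170% of unchanged genes. Those data held many large changes, so these shares do not carry over to the real data. Ribosomal protein genes and the 12 other lists were chosen with earlier results of these data known. Named were Rpl41, the 4 highest and 4 lowest genes above the floor per comparison, the stalk, paralogs, the 5 genes most like Rpl41, the 5 extremes per direction and up to 3 genes per list. The remaining values are given to account for all 22. Protein lengths were not used here.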

Additional observations from a re-analysis of the deposited data

How the results depend on the processing

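No paired analysis was possible because the labels number only the 2 week 6 saline arrays, which were taken as 1 pool. Of 944 single-gene values under alternatives, 905 moved by less than the spread between arrays and 39 by more, most of them at weeks 8 and 12 with quantile normalization.

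Leaving out 1 pool or saline array at a time, the count of ribosomal protein genes called between later and week 6 arrays was 0 to 1. The 1 gene was Rpl41, without the week 8 TNBS pool, where 4 of all 4316 genes were called. Rpl41 was chosen on this contrast, so this is no test of it. With 1 pool or saline array left out, Rpl41's later minus week 6 difference ran from -3.26 to -2.27. Its distance from the median of the other genes ran from -3.24 to -2.17. Both were -3.26 and -3.24 in the saline pools alone and -2.27 and -2.17 in the TNBS pools alone. They had no value with plain probe sets, which leave out that of Rpl41.

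Without the filter the interaction called 2 ribosomal protein genes, Rps29 and Rps4l, both near the floor, among 488 of 8251 genes. A floor of 100 gave 185 genes and none of the family. The interaction could not be fitted without the week 6 TNBS or later saline pool.

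The count of ribosomal protein genes past 2-fold at week 12 was 0 with a floor of 100, with every pool at least 100 and with plain probe sets. The last 2 leave Rps13 out, and the floor of 100 brings its saline value to 100. It was 1 at week 10 with equal array medians, and at week 8 it was 2 with quantile normalization and 0 with plain probe sets. The shares of all genes past 2-fold in these settings are not given, so these counts are no result about the family. The family's median at week 8 was -0.22 with quantile normalization, against 0.04. It also changed sign at week 10 with equal array medians (0.06), at week 12 with quantile normalization (0.07), between later and week 6 arrays with either (0.05 and 0.07), and at week 6 without saline array 1 (0.003). Over all genes, the median with equal array medians was 0.13 at week 10 and 0.14 between later and week 6 arrays. With quantile normalization it was -0.03 at week 8, 0.006 at week 12 and 0.02 between later and week 6 arrays. The cause was not tested. The planned description by protein length was not run. Genes under the floor have bounds alone.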
